A study of Diuraphis noxia with 6 samples.

Results

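Of the 90781 assembled transcripts quantified in whole Russian wheat aphids (*Diuraphis noxia*), 39 had an expected count of 10 or more in all 3 libraries of biotype RWA-SAM and a count of 0 in all 3 libraries of biotype RWA-SA1. The transcripts were chosen by these counts, so their absence from RWA-SA1 is the rule and not a finding, and no test of it is given. The 39 transcripts belong to 35 of the 60140 gene identifiers of the assembly. None of the 35 gene identifiers was itself at 0 in RWA-SA1. For 38 of the 39 transcripts, at least 1 other transcript of the same gene identifier reached a count of 10 in every RWA-SA1 library. At this minimum count, the zeros in RWA-SA1 thus fell on single transcripts of gene identifiers that stayed counted, and in no case on a whole gene identifier.

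RWA-SAM and RWA-SA1 share ancestry, and they differ in virulence, that is in how well they feed on wheat carrying resistance genes. Each library was made from 100 whole aphids of mixed developmental stages, taken from colonies kept on host plants that the biotype prefers, and RNA was prepared with a stranded mRNA kit. No sex, clone number or age is labelled, and no label tells whether replicates were reared apart, so any p-value covers the spread between these pools. Where the plants differed between the biotypes, biotype and host plant cannot be told apart. In pooled whole aphids, fewer cells of a type and less RNA per cell cannot be told apart.

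A gene often gives several mRNAs, since exons can be joined in different combinations, transcription can start or end at different places, and the copies of a gene on paired chromosomes can differ in sequence. An assembly made from short reads without a genome lists each distinct contig as a transcript and groups contigs that share sequence under 1 gene identifier. Such a group can hold splice forms, allelic copies, close paralogs and fragments, and the identifier does not say which. RSEM, the program behind these values, divides a read that fits several transcripts among them by likelihood, so an expected count is an estimate that need not be a whole number. A value of 0 can mean that no read fitted the transcript, or that the reads which fitted it were all given to a related one. The assembled transcripts carry no gene names in the data used here, so no function is given to any of them, the tissue could not be checked against marker genes, and transcripts are called by their length in bases, which differs for all 39.

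The 6 libraries held 35934486, 32294116 and 40181963 expected counts in RWA-SAM replicates 1, 2 and 3, and 36714790, 43501933 and 47619238 in RWA-SA1 replicates 1, 2 and 3. The number of transcripts that reached a count of 10 was 35713, 35258 and 36847 in RWA-SAM, against 35363, 33433 and 34712 in RWA-SA1, and the part of depth in the zeros was not tested. A count of 0 still allows up to 3 counts, or 0.0817 CPM (counts scaled to a library total of 1000000) in the RWA-SA1 library with the fewest counts, and this limit covers counting error only and not the division of reads among transcripts. RWA-SA1 replicate 1 stood apart from its biotype. Its mean correlation of log2(CPM + 1) across transcripts was 0.974 with RWA-SAM and 0.969 with the rest of RWA-SA1, whereas every other library resembled its own biotype more. The label was followed, but whether it is right was not tested, and every count of zeros in RWA-SA1 rests on it, so the rule is also applied without this library. The length and the effective length of a transcript differ by an amount that follows the fragment length that RSEM used. Averaged over transcripts of 1000 bases or more, this difference was 167 to 181 bases in RWA-SAM and 153 to 170 bases in RWA-SA1. Its part in the zeros was not tested.

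The 39 transcripts are a small part of the transcriptome. They were 0.129% of the 30148 transcripts that reached a count of 10 in every RWA-SAM library. Turning the rule round gave 53 transcripts counted only in RWA-SA1, or 0.182% of the 29155 transcripts that reached a count of 10 in every RWA-SA1 library. Together the 39 took 3301, 3276 and 3812 counts in RWA-SAM replicates 1, 2 and 3. This amounted to 0.00961% ± 0.00049 (SD, n = 3) of all counts, and on the scale of TPM, which corrects for transcript length and sums to the same total in every library, to 70.0 ± 7.13 TPM (SD, n = 3). The sum varied little between libraries although single transcripts varied widely.

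In length the 39 ranged from 615 to 5657 bases, with a median of 2240 bases and quartiles of 1769 and 3408 bases. The transcripts counted in every RWA-SAM library had a median of 1951 bases, and all assembled transcripts one of 527 bases. The level of the 39 was low. Their mean TPM in RWA-SAM had a median of 1.35 and a range of 0.273 to 8.86, while the transcripts counted in every RWA-SAM library had a median of 4.49 TPM. No transcript of the 39 was the only one under its gene identifier, against 23.0% of the transcripts counted in every RWA-SAM library. Their gene identifiers held 2 to 22 transcripts with a median of 8, against a median of 4 per transcript in that larger set. Most were minor forms in RWA-SAM too, with a median share of 5.15% of the gene identifier's TPM (IsoPct), against a median of 33.1% for the transcripts counted in every RWA-SAM library. The contrast was smaller against 14467 other transcripts in the same range of mean count, from gene identifiers of at least 2 transcripts. These had a median share of 8.07%, a median of 6 transcripts per gene identifier and a median length of 2067 bases. Their mean counts were higher within that range, with a median of 96.7 against 54.7 for the 39. The 53 transcripts counted only in RWA-SA1 had like values in RWA-SA1, with none the only one under its gene identifier, a median of 9 transcripts per gene identifier, a median share of 5.24% and a median of 1.05 TPM.

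The counts of the 39 spread widely among the RWA-SAM replicates. The ratio of the highest to the lowest CPM among the 3 RWA-SAM libraries had a median of 2.27, and it was above 2 for 26 of the 39 (66.7%) and above 5 for 5 of them. Among the 14467 other transcripts in the same range of mean count the median ratio was 1.67, and 34.3% were above 2. Their median mean count was 96.7, against 54.7 for the 39, and the part of this in the ratios was not tested. Among the 53 transcripts counted only in RWA-SA1 the ratio over the RWA-SA1 libraries was above 2 for 67.9%. No single RWA-SAM library set the pattern. Replicates 1, 2 and 3 held the highest CPM for 11, 12 and 16 transcripts and the lowest for 13, 15 and 11.

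**Figure D1:**
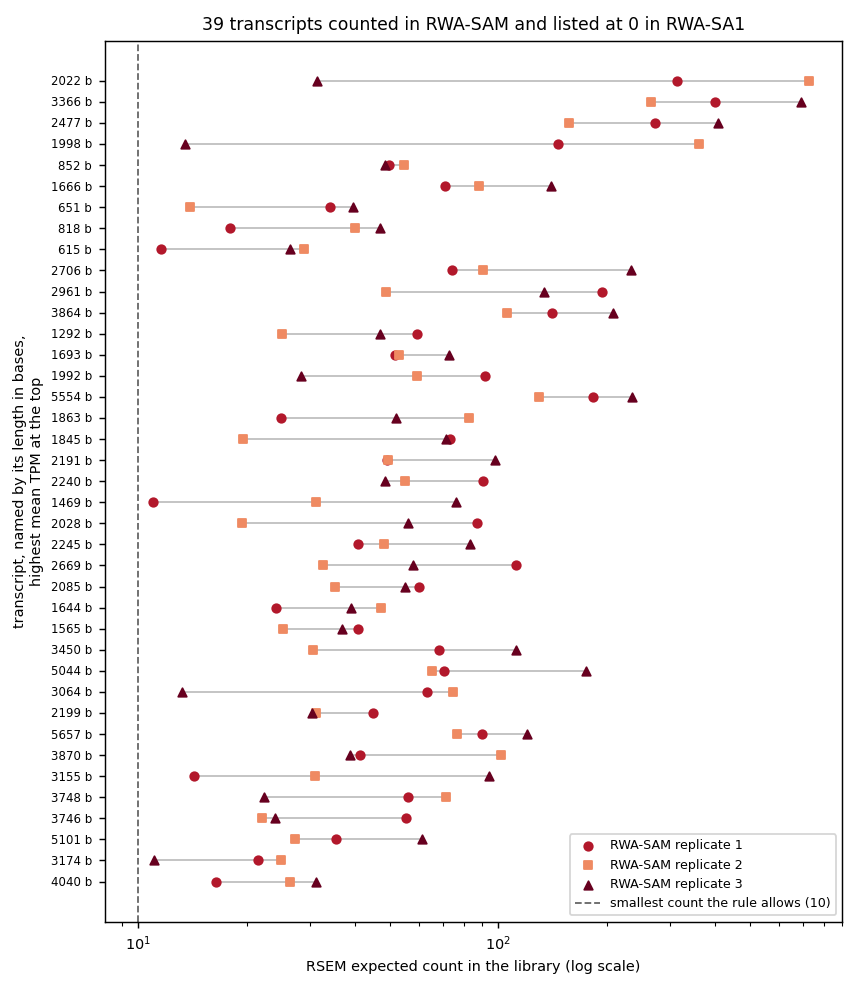
Expected count (log axis) of each of the 39 transcripts in the 3 RWA-SAM libraries, 1 row per transcript, ordered by mean TPM with the highest at the top; all are at 0 in the RWA-SA1 libraries and so have no RWA-SA1 points, and the dashed line is the smallest count allowed, 10. The 2022-base transcript spans 31.4 to 727 counts while the 852-base transcript stays between 48.4 and 54.6 counts.

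The transcript of highest mean TPM was TRINITY_DN486_c0_g1_i4, of 2022 bases. It had 312, 727 and 31.4 counts in RWA-SAM replicates 1, 2 and 3, against 0 in each RWA-SA1 library. Its mean was 8.86 ± 9.13 TPM (SD, n = 3), so the spread between replicates was as large as the mean, and replicate 3 held the least. A second transcript of the same gene identifier, of 1998 bases, followed the same order of libraries with 147, 360.4 and 13.5 counts, against 0 in RWA-SA1. Another transcript of the gene identifier, also of 1998 bases, missed the rule by 0.01 of a count: it had 409, 709.6 and 35.2 counts in RWA-SAM and 0, 0.01 and 0 in RWA-SA1.

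This gene identifier was also one of very high abundance. Its 8 transcripts took 0.240%, 0.208% and 0.116% of all counts in RWA-SAM replicates 1, 2 and 3, and 0.321%, 0.288% and 0.372% in RWA-SA1. The 3 transcripts at or near 0 in RWA-SA1 were a minor part of it, with 1.01%, 2.68% and 0.172% of its counts in RWA-SAM. Its most counted transcript, of 1986 bases, had 29431, 21951 and 16181 counts in RWA-SAM, against 43987, 44372 and 63512 in RWA-SA1. The biotypes did not overlap there, and RWA-SAM was the lower of them. Of the 8 transcripts, 7 had lengths that differ from each other by multiples of 12 bases, from 1926 to 2022 bases, and the other was of 1030 bases. No sequence was at hand to say what the steps of 12 bases are.

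**Figure D2:**
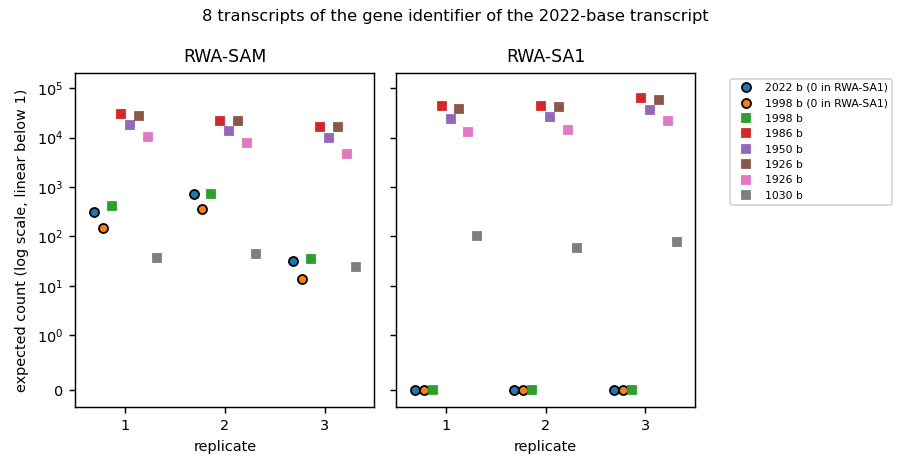
Expected counts (log axis, linear below 1) of the 8 transcripts of the gene identifier that holds the 2022-base transcript, in RWA-SAM (left) and RWA-SA1 (right), by replicate; circles are the transcripts at 0 in RWA-SA1, squares the others, and points are offset sideways so that they do not cover each other. In RWA-SA1 the 3 transcripts of 1998 and 2022 bases lie at or next to 0, beneath 4 transcripts with 12685 or more counts each.

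The transcript with the second highest TPM, TRINITY_DN3837_c1_g1_i5 of 3366 bases, was the most counted of the 39 on average and was steadier. It had 399, 265 and 692 counts in RWA-SAM replicates 1, 2 and 3, against 0 in RWA-SA1, and a mean of 5.88 ± 2.24 TPM (SD, n = 3). Its mean in RWA-SAM was 12.2 CPM. No fold over RWA-SA1 is given, since the rule fixed the difference and the limit of 3 counts leaves out the division of reads. It made up 13.4%, 9.65% and 20% of its gene identifier's TPM in RWA-SAM. The other 5 transcripts of the gene identifier all reached a count of 10 in every library of both biotypes. The largest in RWA-SA1, of 2834 bases, had 812, 729 and 902 counts in RWA-SAM, against 1406, 2079.6 and 2419 in RWA-SA1. A transcript of 3962 bases was the largest in RWA-SAM, with 1379, 1345 and 1399 counts there and 1546, 1116 and 916 in RWA-SA1.

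The 2477-base transcript came next by TPM, with 272, 157 and 408 counts in RWA-SAM and a mean of 5.04 ± 1.78 TPM (SD, n = 3). It made up 30.2%, 19.9% and 36.8% of its gene identifier's TPM in RWA-SAM and was the shortest of that gene identifier's 6 transcripts. The other 5 were counted in every RWA-SA1 library, and the leading one of 5782 bases had 332, 546 and 365 counts in RWA-SAM, against 539, 809 and 763 in RWA-SA1. A transcript of 2540 bases, 63 bases longer than the one at 0, had 272, 213 and 198 counts in RWA-SAM and 438, 219.5 and 233 in RWA-SA1. Its values overlapped between the biotypes.

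The 852-base transcript was the steadiest of the first 10 by TPM, with 49.8, 54.6 and 48.4 counts in RWA-SAM and a mean of 3.23 ± 0.527 TPM (SD, n = 3). Its gene identifier held 6 other transcripts, of which 5 were counted in every RWA-SA1 library. The 1666-base transcript had 71.2, 88.2 and 140.06 counts in RWA-SAM, and a 1644-base transcript of the same gene identifier had 24.2, 47.2 and 38.9. The leading transcript of that gene identifier in both biotypes, of 1653 bases, differed from these by 13 and 9 bases in length and had 209.8, 109.95 and 232 counts in RWA-SAM, against 294, 233 and 262 in RWA-SA1. In this gene identifier 2 further transcripts, of 1773 and 1736 bases, were at 0 in every RWA-SA1 library with 5.14 to 22.7 counts in RWA-SAM, below the rule's 10 in at least 1 library. So 4 of its 9 transcripts had counts in RWA-SAM alone, while 3 reached a count of 10 in every library of both biotypes.

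The 651-base transcript took the largest share of its gene identifier. It had 34.1, 14.0 and 39.5 counts in RWA-SAM, which was 66.8%, 39.8% and 83.5% of the gene identifier's TPM. A 635-base transcript, 16 bases shorter, took that place in RWA-SA1. The 635-base transcript had 0, 10.8 and 1.48 counts in RWA-SAM, against 18.5, 14.4 and 31.0 in RWA-SA1. Scaled for depth, its values overlapped, with 0, 0.334 and 0.0368 CPM in RWA-SAM, against 0.504, 0.331 and 0.651 CPM in RWA-SA1. The leading place within the gene identifier thus differed between the biotypes, at a level of under 40 counts, and RWA-SAM replicate 2 held both transcripts.

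The 615-base transcript, the shortest of the 39, was the 1 exception among them, with no other transcript of its gene identifier counted at 10 or more in every RWA-SA1 library. It had 11.6, 28.8 and 26.4 counts in RWA-SAM. Its 6 companion transcripts each had at most 8.69 counts in any library, and summed to 0.456, 0.843 and 0.488 CPM in RWA-SAM, against 0.136, 0.115 and 0.252 CPM in RWA-SA1. The gene identifier as a whole thus had few counts in RWA-SA1, where every library was below every RWA-SAM library. It was the only gene identifier of the 35 for which the remaining transcripts were more than 1.5-fold higher in RWA-SAM on the CPM scale, with a ratio of 3.55.

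The 818-base and 2706-base transcripts complete the first 10. The 818-base transcript had 18, 39.9 and 47 counts in RWA-SAM and belonged to a gene identifier of 21 transcripts whose leading form, of 5647 bases, was 4829 bases longer. This was the largest difference in length in the set. The 2706-base transcript had 74.2, 90.9 and 233 counts in RWA-SAM, beside a leading form of 5425 bases with 2117, 1742 and 2621 counts in RWA-SAM and 1957, 2263 and 2384 in RWA-SA1. Scaled for depth, that leading form had 58.9, 53.9 and 65.2 CPM in RWA-SAM, against 53.3, 52.0 and 50.1 CPM in RWA-SA1. The biotypes thus overlapped in raw counts and not in CPM, with RWA-SAM above. Of the gene identifiers with 10 or more counts in every library, summed without the 39, 28.9% had RWA-SAM above without overlap. With TMM scaling in edgeR, the remaining transcripts of this gene identifier had a log2 difference of 0.0049. The longest of the 39, of 5657 bases, had 90, 76.8 and 119.65 counts in RWA-SAM and shared its gene identifier with a 5554-base transcript of 183, 129.8 and 235 counts. These were the steadiest pair under 1 gene identifier, with the highest library at most 1.46 times the lowest in CPM. The last gene identifier with 2 of the 39 held transcripts of 5044 bases (70.6, 65.6 and 175 counts in RWA-SAM) and 5101 bases (35.4, 27.3 and 61.3 counts) among 22 transcripts, 20 of which were counted in every RWA-SA1 library.

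The other members lay lower, down to the 4040-base transcript with 16.5, 26.4 and 31.1 counts in RWA-SAM and a mean of 0.273 TPM. Besides both members of the gene identifier of the 2022-base transcript, 3 had over 5 times as much CPM in their highest as in their lowest RWA-SAM library. They were the 1469-base transcript with 11.02, 31.1 and 76.3 counts, the 3064-base transcript with 63.4, 74.6 and 13.2, and the 3155-base transcript with 14.3, 31.0 and 94.2. Each of the 3 RWA-SAM libraries was thus the lowest or the highest for at least 1 of them.

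For 2 of the 39 the gene identifier held only 1 other transcript, here called the partner. Reads may also be shared with transcripts under other gene identifiers, which was not tested. The 3864-base transcript had 141, 105 and 208 counts in RWA-SAM. Its partner, 87 bases shorter, had 1452, 1204 and 1614 counts in RWA-SAM, against 1279, 991 and 1249 in RWA-SA1. The 2028-base transcript had 87.1, 19.4 and 56.1 counts in RWA-SAM, and its partner, 16 bases shorter, had 3236, 2938 and 3847 counts in RWA-SAM, against 3203, 3524 and 3780 in RWA-SA1. Scaled for depth, the first partner had 40.4, 37.3 and 40.2 CPM in RWA-SAM, against 34.8, 22.8 and 26.2 CPM in RWA-SA1. The second had 90.1, 91.0 and 95.7 CPM in RWA-SAM, against 87.2, 81.0 and 79.4 CPM in RWA-SA1. Neither partner overlapped between the biotypes in CPM, with RWA-SAM above by a ratio of means of 1.41 for the first and 1.12 for the second. Over the gene identifiers with 10 or more counts in every library, summed without the 39, the median ratio was 1.12. Of these, 28.9% had RWA-SAM above without overlap. With TMM scaling in edgeR the log2 differences of the partners were 0.31 and −0.03, and neither had an adjusted p under 0.05.

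In length, 15 of the 39 were within 100 bases of the most counted RWA-SA1 transcript of their gene identifier, and 24 were further from it. The same was not worked out for other transcripts, so closeness in length is not shown to be a trait of the 39. Compared with the most counted RWA-SA1 transcript of the same gene identifier, 30 were longer and 9 were shorter. The difference was at most 20 bases for 7, at most 50 bases for 10 and at most 100 bases for 15, with a median of 192 bases. It was above 1000 bases for 7. In 11 cases the transcript at 0 in RWA-SA1 was the longest of its gene identifier and in 2 cases the shortest. With the 39 themselves set aside, the transcript that led in RWA-SA1 also led in RWA-SAM for 27 of the 39. The 615-base transcript was among these, yet it exceeded that transcript in RWA-SAM. It had 11.6, 28.8 and 26.4 counts there, against 0, 7.72 and 8.18 for the 549-base transcript that led in RWA-SA1.

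**Figure D3:**
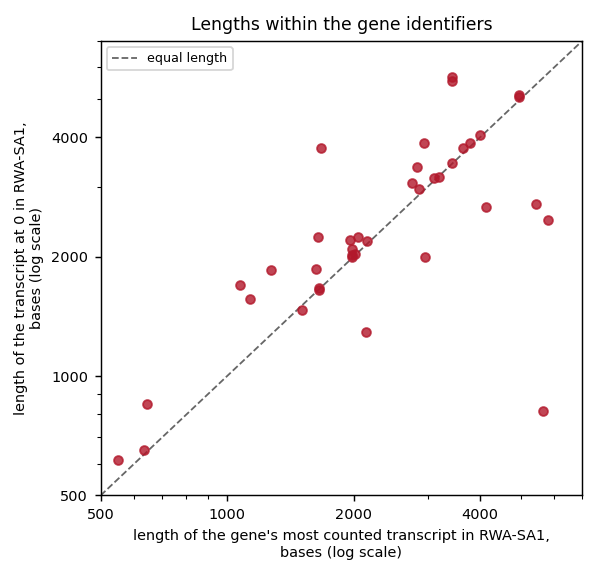
Length in bases of each of the 39 transcripts (vertical log axis) against the length of the most counted RWA-SA1 transcript of the same gene identifier (horizontal log axis); each point is 1 transcript and the dashed line marks equal length. Above the line lie 30 points and below it 9, and 15 are within 100 bases of it.

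Under the 35 gene identifiers there were 295 other transcripts. A count of 10 was reached in all RWA-SAM libraries by 181 of these, in all RWA-SA1 libraries by 186 and in all 6 libraries by 160. Of the 295, 26 were at 0 in every RWA-SA1 library and 18 were at 0 in every RWA-SAM library, with 11 at 0 in all 6 and so in both numbers. In 2 gene identifiers the exchange ran both ways, since they also held a transcript counted in every RWA-SA1 library and absent from RWA-SAM. Beside the 3450-base transcript, with 68.3, 30.5 and 112 counts in RWA-SAM, stood a 3458-base transcript with 0 in each RWA-SAM library and 132, 72.9 and 107 counts in RWA-SA1. A 3259-base transcript of that gene identifier had 284, 322 and 347 counts in RWA-SAM, against 1.42, 0 and 0 in RWA-SA1, and so missed the rule through 1 library. Beside the 1565-base transcript, with 40.7, 25.2 and 36.8 counts in RWA-SAM, stood a 1522-base transcript with 0 in RWA-SAM and 19.2, 18.5 and 20.5 counts in RWA-SA1.

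The summed counts of the remaining transcripts show the level at which each gene identifier was counted once the 39 were set aside. On the CPM scale, the ratio of the RWA-SAM mean to the RWA-SA1 mean had a median of 1.02 over the 35 gene identifiers, and 31 were within 1.5-fold. Over the 13531 gene identifiers with 10 or more counts in every library the median was 1.12 and 77.9% were within 1.5-fold. Of the 35, 33 met that same minimum, and in 11 of them the biotypes did not overlap, 4 with RWA-SAM above and 7 with RWA-SAM below. The share of non-overlapping gene identifiers was 40.8% in the background, with 28.9% above and 11.9% below. Because counting the 39 out removes reads from RWA-SAM alone, a lean towards lower values in RWA-SAM is built into this measure.

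**Figure D4:**
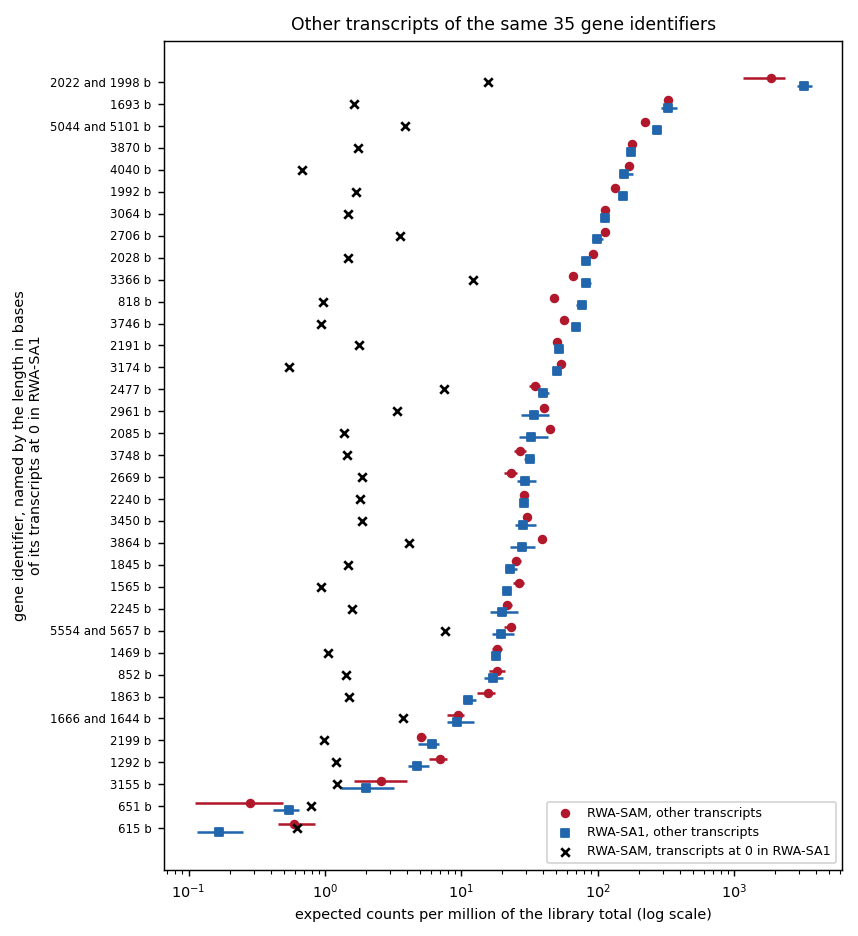
CPM (log axis) summed over the other transcripts of each of the 35 gene identifiers, ordered by the RWA-SA1 mean, in RWA-SAM (circles) and RWA-SA1 (squares), with points at the mean of 3 libraries and lines from the lowest to the highest library; crosses give the mean RWA-SAM CPM of the transcripts at 0 in RWA-SA1. The circles and squares of a gene identifier lie close together, within 1.5-fold for 31 of the 35, and most crosses lie far to the left of them.

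The direction of these sums depends on the scaling. By library totals the remaining transcripts were higher on average in RWA-SAM for 23 gene identifiers and lower for 12, whereas with TMM scaling in edgeR they were higher for 10 and lower for 25. Library totals put the median of all tested or counted gene identifiers at 0.16 on the log2 scale and TMM at 0.01, so relative to that median the 35 lay at −0.13 and −0.17. edgeR's quasi-likelihood test of the same sums gave a Benjamini-Hochberg adjusted p under 0.05 for 9.41% (1539) of 16358 gene identifiers, 3.9% higher and 5.51% lower in RWA-SAM. Of the 35, 0 were among those higher and 7 among those lower. These rest on the contrast that chose the transcripts and are given as a description. With the 39 left in the sums, 5 were higher and 6 lower, beside 3.93% and 5.54% of all. The median log2 difference of the 35 in edgeR was then −0.06, against −0.15 with the 39 taken out. Over all gene identifiers tested it was 0.01 either way. When any library but RWA-SA1 replicate 1 was left out, edgeR called 0 of all gene identifiers tested, and so 0 of the 35. Without RWA-SA1 replicate 1 there were 4 higher and 16 lower, beside 25.7% and 24.9% of all 17483 tested (50.6% in all). DESeq2 gave an adjusted p under 0.05 for 1 higher and 9 lower of the 35. Over all 16358 tested it gave 1763 higher and 2144 lower (23.9% in all).

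The 7 lower sums belonged to the gene identifiers of the 818-base, 3366-base, 5044-base, 3746-base, 2669-base, 1992-base and 2477-base transcripts. The largest difference of the 7 was that of the 818-base transcript's gene identifier, at −0.87 ± 0.12 on the log2 scale (standard error), with 46.5, 47.6 and 50.8 CPM in RWA-SAM, against 70.1, 80.9 and 78.9 CPM in RWA-SA1. The others ranged from −0.51 to −0.38. The gene identifier of the 2022-base transcript had the second largest log2 difference towards RWA-SA1 among the 35, −1.0 ± 0.28 (standard error), and did not pass in edgeR (adjusted p = 0.0589), its RWA-SAM libraries at 2383, 2042 and 1159 CPM, against 3211, 2882 and 3716 CPM in RWA-SA1. Over all single transcripts, edgeR called 0 of 36184 (7510 had an unadjusted p under 0.05), where DESeq2 called 4531, or 12.5%. Calls of the 39 themselves are not given, since the rule fixed their difference.

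Transcripts lay on both sides of the rule's limits. Just inside, the smallest RWA-SAM counts were 11.02 for the 1469-base transcript, 11.1 for the 3174-base transcript and 11.6 for the 615-base transcript. Just outside were transcripts at 0 in RWA-SA1 with smallest RWA-SAM counts of 9.71, 8.93 and 8.64, of 1773, 1096 and 827 bases. Just outside on the other side were transcripts whose highest RWA-SA1 count was 0.01, 0.18 and 0.52, of 1998, 2618 and 1341 bases. With a minimum of 5 counts, 63 transcripts met the rule, and with a minimum of 20, 28 did.

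Many transcripts were kept out by a single library, most often by RWA-SA1 replicate 1. There were 166 transcripts with 10 or more counts in every RWA-SAM library, 0 in RWA-SA1 replicates 2 and 3, and a count above 0 in RWA-SA1 replicate 1. Their counts in replicate 1 had a median of 46.4 and reached 1034, and 147 were at 10 or more. The corresponding numbers were 42 transcripts for RWA-SA1 replicate 2 and 50 (median 19.8 counts) for RWA-SA1 replicate 3. Without RWA-SA1 replicate 1 the rule gave 205 transcripts, against 81 and 89 without RWA-SA1 replicate 2 or 3, and 65, 72 and 55 without RWA-SAM replicate 1, 2 or 3.

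**Figure D5:**
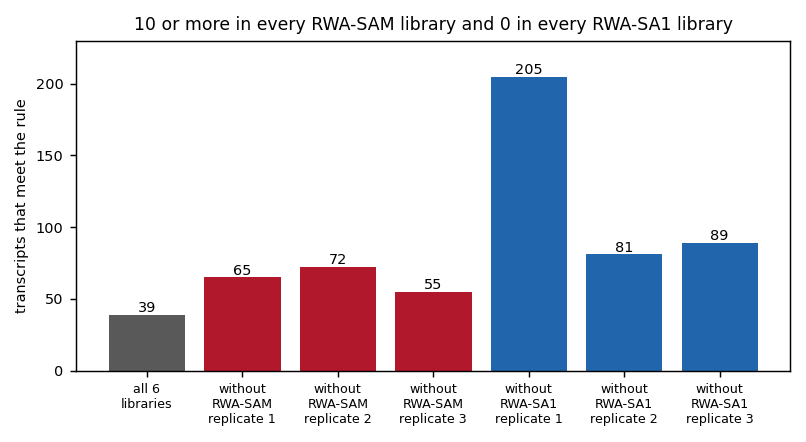
Number of transcripts with 10 or more counts in each RWA-SAM library and none in any RWA-SA1 library, with all 6 libraries (39) and with 1 library left out at a time (bars from 0). Leaving out RWA-SA1 replicate 1 gave 205 transcripts, more than any other library left out.

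Among those 205, 7 belonged to a gene identifier that was wholly at 0 in RWA-SA1 replicates 2 and 3, and each of the 7 was the only transcript of its gene identifier. They were 266 to 742 bases long. Their counts in RWA-SAM ran from 10 to 39 and in RWA-SA1 replicate 1 from 5 to 17. RWA-SA1 replicate 1 thus held counts of these gene identifiers that neither other RWA-SA1 library held, and the reason was not tested.

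Whole gene identifiers at 0 in RWA-SA1 did appear when fewer counts were asked for. At a minimum of 5 counts there were 2, the only transcripts of their gene identifiers, of 246 and 270 bases, with 6, 11 and 9 counts in RWA-SAM for the first and 11, 9 and 7 for the second. Asking for 0.5 TPM in every RWA-SAM library and 0 TPM in RWA-SA1 gave 359 transcripts, of which 286 belonged to gene identifiers wholly at 0 in RWA-SA1. These 286 were 201 to 455 bases long with a median of 231 bases. Their mean counts in RWA-SAM had a median of 1.67, and the highest count among them was 14, so for most of them a difference was not detectable at this depth, where a count of 0 allows up to 3.

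A count of 0 in 1 library beside counts in the other 5 was found almost only in gene identifiers with several transcripts. Among transcripts with 10 or more counts in the other 5 libraries, 240, 290 and 148 were at 0 in RWA-SAM replicates 1, 2 and 3 alone, and 181, 335 and 215 in RWA-SA1 replicates 1, 2 and 3 alone. Taken over the 6 libraries these zeros were 1408 of 126880 values (1.11%) for transcripts that share their gene identifier with others, and 1 of 35281 (0.00283%) for transcripts that are the only one of theirs. The 39 all belong to the first kind. Examples within their own gene identifiers were the 2142-base companion of the 1292-base transcript, with 111, 0 and 150.2 counts in RWA-SAM, against 215, 82.5 and 108 in RWA-SA1, and the 3102-base companion of the 3155-base transcript, with 69.0, 27.6 and 0 counts in RWA-SAM, against 58.7, 37.7 and 55.3 in RWA-SA1. How much of the absence of the 39 from RWA-SA1 comes from the division of reads among related transcripts was not tested, since it needs the reads and the transcript sequences.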

How the data were processed

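RNA of 3 RWA-SAM and 3 RWA-SA1 libraries, each of 100 pooled whole aphids, was measured. The deposited expected counts, TPM values and percentages of a gene's TPM (IsoPct) are RSEM output of the authors for each library, over transcripts with Trinity-style names, and the processing notes also name FastQC and Trimmomatic 0.39. The deposited lengths and effective lengths come from the same files. The aligner and assembly version are not given in the sources used here.

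Transcripts were chosen by expected count, and the members and lists were chosen with earlier results of these data known. Named were the 10 of highest TPM, the longest and shortest, those sharing a gene identifier, and those next to the limits; others were named after their values were seen. Identifiers are printed for 2 transcripts only. CPM is relative to the total expected counts of a library. After rounding, expected counts went into edgeR 4.0.16 under R 4.3.3 (two-sided quasi-likelihood test, TMM, filterByExpr, Benjamini-Hochberg adjustment, threshold 0.05), for transcripts and for gene identifiers without the 39. DESeq2 1.42.0, RLE scaling, other filters, a replicate block, other limits of the rule and leaving out each library were alternatives. Keeping the 39 in the sums was added after seeing the data. The edgeR step was tested on simulated data. Python 3.11.15, pandas 2.3.3, numpy 2.4.6 and matplotlib 3.10.9 made summaries and plots. No 2 libraries agreed within sampling noise.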

Additional observations from a re-analysis of the deposited data

How the results depend on the processing

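The number of transcripts that met the rule was 39. It was 63 with a minimum of 5 counts and 359 by TPM, and it stayed within 1.5 times of 39 with a minimum of 20 counts, a minimum of 0.3 CPM or RWA-SA1 counts under 0.5. Leaving out 1 library gave 55 to 205. Those with their whole gene identifier at 0 in RWA-SA1 numbered 0, but 2 with a minimum of 5 counts, 286 by TPM, and 0 to 7 with 1 library left out. Those with another transcript counted in every RWA-SA1 library numbered 38, and 52 to 194 with 1 library left out. By TPM the summed share of the 39 was 0.0070%, in place of 0.00961% of counts. edgeR called 0 transcripts and DESeq2 4531; leaving out 1 library gave 0 to 7290, the highest without RWA-SA1 replicate 1. On sums without the 39, edgeR called 1539 gene identifiers, against 3907 by DESeq2 and 577 without a filter, and leaving out 1 library gave 0 to 8843, the highest without RWA-SA1 replicate 1. The cause of these differences was not tested. With the replicate number as a block 0 gene identifiers and 0 transcripts were called. The replicate numbers were not taken as pairs in the main test. Deviations of same-numbered libraries correlated at −0.07, 0.05 and −0.09, and those of differently numbered libraries at −0.09 to 0.13. With 3 libraries per biotype these values cannot settle whether replicates were matched. A result for transcripts of gene identifiers at 0 in RWA-SA1 could not be given, since there were none. At this depth a level under 3 counts in a library cannot be told from 0.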
